A study of Mus musculus with 5 samples.

Results

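The genes described here are 9 members of the complement system, C1qa, C1qb, C1qc, C1ra, C1s1, C2, C4b, C3 and Serping1, which were chosen by symbol and were all found among the 31053 genes of 5 single-cell RNA sequencing libraries of the mouse ovary. Each library held cells of C57BL6/J mice that had received no treatment, and the mice were 2, 3, 4, 5 or 6 weeks (wk) old, with 1 library per age. The ovaries were dissociated with trypsin, and undissociated structures and cell clumps were strained off. Cells that excluded the dead-cell dye SYTOX Orange were then sorted by flow cytometry before 3′ end libraries were prepared. The values thus describe live, sorted cells that passed the strainers and not every cell of the organ. The sources used here do not state how many animals or ovaries went into a library. With n = 1 per age, no test between ages was possible and the age of a library cannot be told apart from its handling. Levels are given as CPM, the unique molecular identifiers (UMIs, counted RNA molecules) of a gene per 1000000 UMIs of all genes, summed over the cells of a class in a library. Intervals are exact 95% intervals (Poisson for a level, binomial for a share or a ratio of 2 levels) and cover counting error only.

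Complement is a cascade of plasma proteins that tags and lyses microbes and marks dying cells for removal. In the classical pathway the recognition molecule C1q, built from the chains encoded by C1qa, C1qb and C1qc, binds immunoglobulin or altered cell surfaces and activates the serine proteases C1r and C1s. C1s then cleaves C4 and C2, whose fragments form the enzyme that cleaves C3, the component on which all the activation routes converge, while C1 inhibitor, the product of Serping1, inactivates C1r and C1s. The liver supplies most of the circulating components, C1q is made mainly by macrophages and related cells, and fibroblasts and epithelia also make several components locally.

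The 5 libraries held 48163 cells and between 93438618 and 144609431 UMIs each, with a median of 9056 to 12424 UMIs per cell. The files give no cell types, so cells were clustered with the complement genes left out of the genes used, and the clusters were named from marker lists. The classes were granulosa-like (18185 cells), stromal-like (14119), smooth muscle-like (4206), theca-like (923), pericyte-like (870), blood endothelial-like (716), hematopoietic-like (495), surface epithelial-like (322), lymphatic endothelial-like (224) and rete ovarii-like (90). Another 8013 cells, with 6.57% of the UMIs, lay in clusters that stayed unnamed. In all, 273 cell barcodes occurred in 2 libraries. The matrix headers name Cell Ranger 3.1.0 for 2, 3 and 4 wk and 6.0.1 for 5 and 6 wk, so that ratios among 2, 3 and 4 wk, and of 6 wk to 5 wk, were free of a change of version.

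Each captured molecule gives 1 UMI from its 3′ end whatever its length. How well each gene was captured was not examined, so the order of the totals is one of UMIs. The counts of C1ra, C1s1, C2 and C4b also have the uncertainties given below. Serping1 had the most UMIs of the members, 61097 in 37.4% of all cells. C1s1 followed with 14748 UMIs in 18.8% of cells and C1ra with 9168 UMIs in 14.8%. C2 had 6560 UMIs in 9.87% of cells, whereas C3 had nearly as many, 5955, in only 1.56%, and C4b had 1385 in 1.88%. The C1q chains were the most concentrated, with 10724 (C1qa), 9793 (C1qb) and 6775 (C1qc) UMIs in under 1% of cells each (0.926%, 0.949% and 0.760%). By the median over libraries, the class with the highest level was hematopoietic-like for the 3 C1q chains, surface epithelial-like for C1ra, C2 and Serping1, pericyte-like for C1s1, and rete ovarii-like for C4b and C3, for which only the 2 libraries with at least 20 such cells (2 and 3 wk) were used. The ranges over libraries did not overlap those of the next class for the C1q chains and C2, and did overlap for C1ra, C1s1, C4b, C3 and Serping1.

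**Figure D1:**
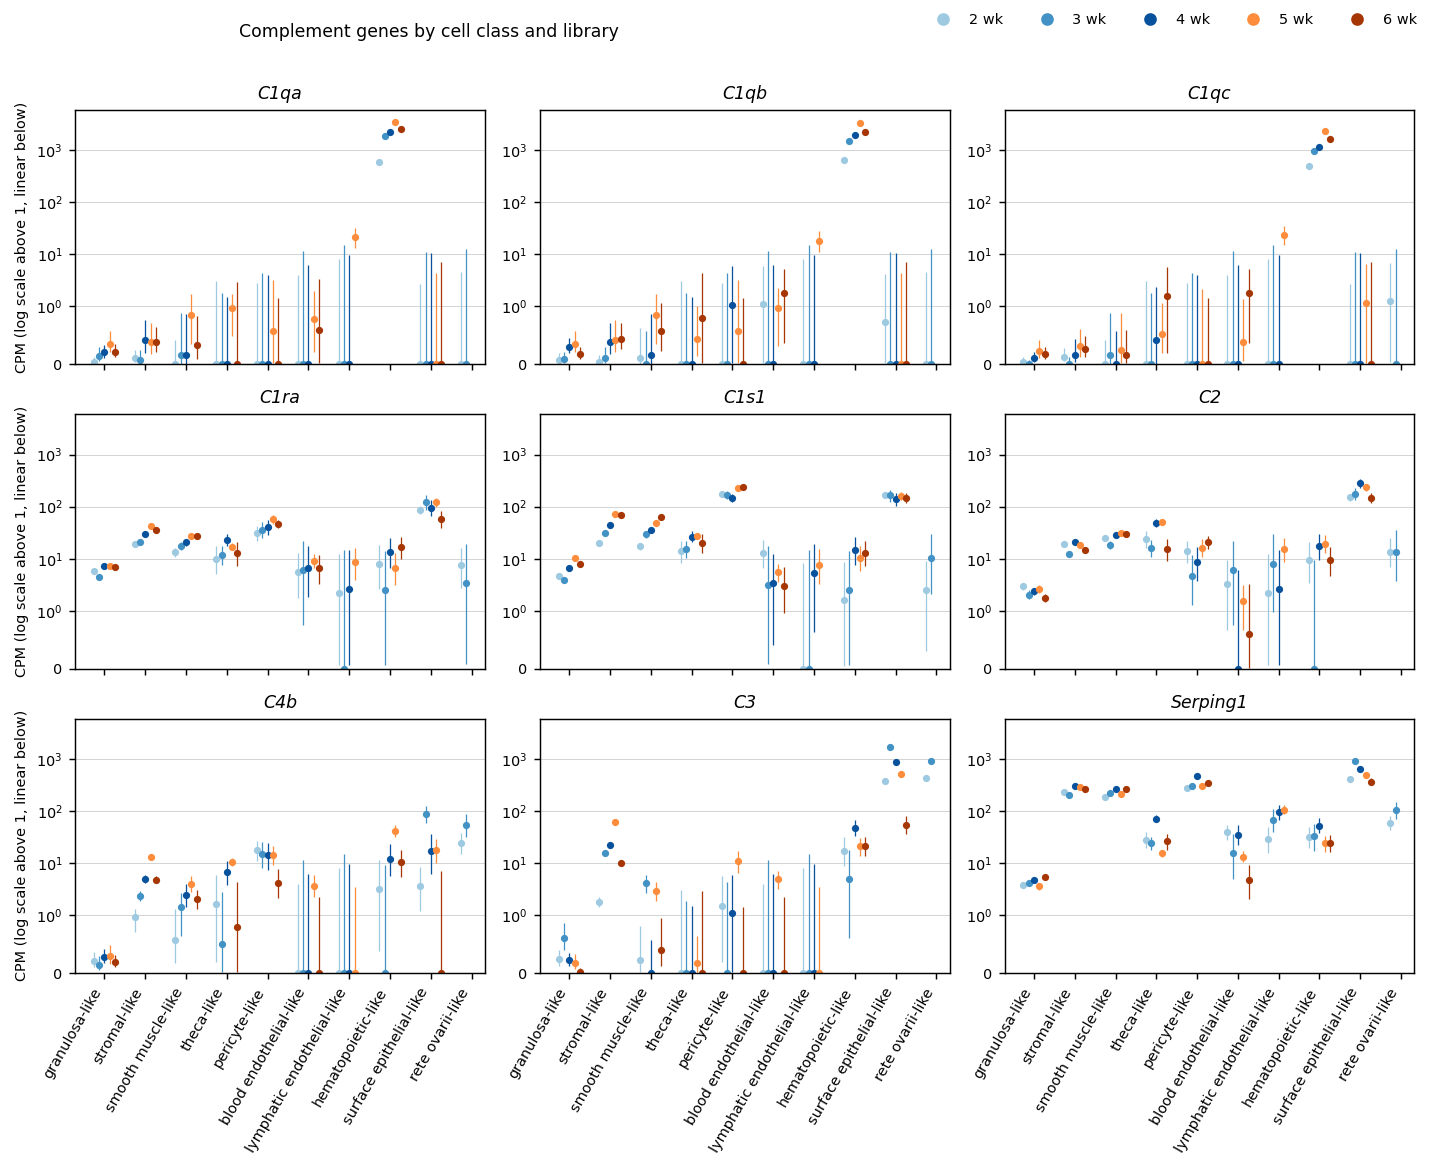
Level of each of the 9 complement genes (CPM, symmetric log axis) in the 10 named cell classes, with 1 point per library coloured by age and bars for the exact 95% Poisson interval, for sums of at least 20 cells. The C1q chains lie between 503 and 3497 CPM in hematopoietic-like cells, and the highest point of another class is 23.0 CPM (C1qc, lymphatic endothelial-like cells at 5 wk), C2 is highest in surface epithelial-like cells in all 5 libraries, and granulosa-like cells are near the bottom of the Serping1 panel, between 3.59 and 5.39 CPM.

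Between the most numerous classes, 6 of the 9 members (C1ra, C1s1, C2, C4b, C3 and Serping1) were at least 2-fold higher in stromal-like than in granulosa-like cells in each of the 5 libraries, and none was lower. Of all 16382 genes with at least 50 UMIs over both classes, 19.2% met that criterion, 10.9% being higher and 8.28% lower in stromal-like cells. The median log2 ratio was 2.80 over the members and -0.18 over all genes. The lowest and highest ratios over the libraries were 3.31 and 5.95 for C1ra, 4.22 and 8.78 for C1s1, 6.01 and 8.62 for C2, 4.84 and 44.8 for C4b, and 48.5 and 80.3 for Serping1. The C3 ratio ranged from 7.65 at 2 wk to 379.6 at 6 wk, the latter resting on 2 UMIs in granulosa-like cells (interval 104 to 3146). The 3 C1q chains were near their floor in both classes, with 42, 42 and 28 UMIs in all stromal-like and 57, 60 and 34 in all granulosa-like cells. With the cells called doublets left out, the median ratio moved from 60.1 to 118 for Serping1 and from 102 to 179 for C3.

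C1qa, C1qb and C1qc encode the A, B and C chains of C1q and lie next to each other on chromosome 4 (C1qa at 136895917-136898803, C1qb at 136880129-136886187 and C1qc at 136889804-136893065, all on the minus strand of GRCm38). The hematopoietic-like class held 96.7% of C1qa, 96.8% of C1qb and 96.9% of C1qc UMIs with 0.723% of all UMIs. Its C1qa level was 605 CPM (546 to 669) at 2 wk, 1854 (1722 to 1993) at 3 wk, 2280.4 (2173 to 2392) at 4 wk, 3497 (3397 to 3599) at 5 wk and 2523 (2432 to 2617) at 6 wk. The C1qb levels in the same order were 646, 1518, 1960.1, 3301 and 2281 CPM, and those of C1qc were 503, 955, 1155, 2365 and 1619 CPM. All 3 chains were thus lowest at 2 wk and highest at 5 wk, with intervals that did not overlap between those ages.

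The hematopoietic-like class was a mixture of cell types. In the sums of a class, fewer cells of a type and less RNA per cell cannot be told apart. Of 126 macrophage-like cells, 124 (98.4%, interval 94.4 to 99.8) had UMIs of all 3 chains, as did 26 of 67 dendritic-like cells (38.8%, 27.1 to 51.5) and 68 of 164 hematopoietic-like cells that stayed unnamed (41.5%, 33.8 to 49.4). The unnamed cells held 4156 C1q UMIs, and 81 of them were from 5 wk, where 52 had a C1qa UMI. No C1q UMI was found in 73 T-like, 34 natural killer-like or 31 neutrophil-like cells. The intervals allow a share of cells with UMIs of all 3 chains of up to 4.93%, 10.3% and 11.2%. In macrophage-like cells C1qa was at 3356 CPM (2837 to 3942) in 5 cells at 2 wk, 5159 in 14 cells at 3 wk, 6101 in 24 at 4 wk, 6570.1 in 46 at 5 wk and 6376 (6117 to 6642) in 37 at 6 wk. Macrophage-like cells were also rarest at 2 wk, with 5 of 52 hematopoietic-like cells, against 14 of 50, 24 of 84, 46 of 179 and 37 of 130 in the later libraries. Within macrophage-like cells the level at 6 wk was 0.970-fold that at 5 wk for C1qa (interval 0.920 to 1.02), 0.996-fold for C1qb (0.941 to 1.05) and 0.953-fold for C1qc (0.892 to 1.02), while over the whole class it was 0.722-, 0.691- and 0.684-fold.

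Over all libraries, C1qa, C1qb and C1qc made up 39.2%, 35.9% and 24.9% of the 26419 C1q UMIs of hematopoietic-like cells, a comparison of 3′ end UMIs and not of protein. By library, C1qa was at 34.5% (31.7 to 37.4) at 2 wk and 42.8% (40.5 to 45.2) at 3 wk, and C1qc at 28.7% (26.04 to 31.5) and 22.1% (20.1 to 24.1). The C1qa UMIs of 2 wk came from only 4 macrophage-like, 3 dendritic-like and 1 unnamed cell. In these groups the C1qa share was 31.4%, 35.8% and 42.5%. The intervals leave out such variation between cells, so a difference between libraries was not shown. In the 5 macrophage-like cells of 2 wk, C1qb (41.4%) exceeded C1qa (31.4%). In granulosa-like cells they made up 37.7% (interval 29.997 to 46.0), 39.7% (31.9 to 48.0) and 22.5% (16.1 to 30.02) of 151 UMIs, and in stromal-like cells 37.5%, 37.5% and 25% of 112. The granulosa-like levels of C1qa, C1qb and C1qc were 0.00784%, 0.00902% and 0.00738% of the hematopoietic-like ones, whereas the 6 hematopoietic markers (Laptm5, Ptprc, Tyrobp, Fcer1g, Coro1a and Cd52) were at 0.0136% to 0.0436%. The part of carried-over RNA in the C1q UMIs of granulosa-like cells was not tested. The 65 C1q UMIs of lymphatic endothelial-like cells all came from 1 cell of the 5 wk library.

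**Figure D2:**
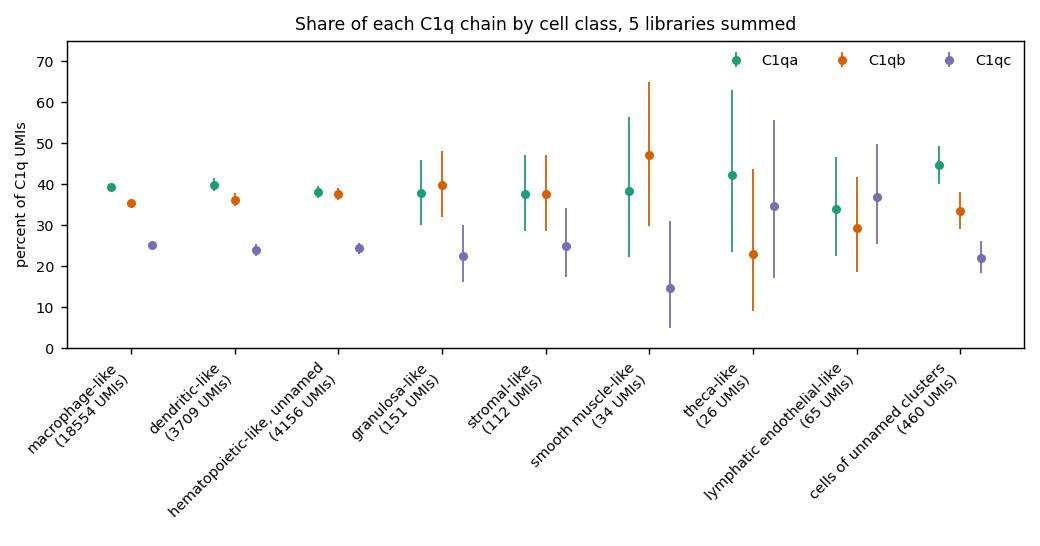
Share of C1q UMIs (percent) from C1qa, C1qb and C1qc in 9 groups of cells over the 5 libraries, with exact 95% binomial intervals and the number of C1q UMIs in brackets. The intervals of granulosa-like cells (37.7%, 39.7% and 22.5% of 151 UMIs) include the shares of macrophage-like cells (39.4%, 35.5% and 25.2% of 18554 UMIs).

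In hematopoietic-like against stromal-like cells, the 3 C1q chains were at least 2-fold higher in every library (8.38% of 14804 genes were) and C1ra, C1s1 and Serping1 were at least 2-fold lower (4.96% of genes were, and 13.3% were either). The lowest C1q ratio of any library was 3871, and the ratios rest on only 28 to 42 stromal-like UMIs per chain. Serping1 was 5.81- to 12.02-fold lower, C1s1 3.01- to 12.4-fold lower and C1ra 2.20- to 8.18-fold lower, the highest of these resting on 1 hematopoietic-like UMI (C1s1 at 2 and 3 wk, C1ra at 3 wk). With counting intervals, the ratio at those points was at most 0.450 and 0.453 for C1s1 and 0.684 for C1ra. C2 (0.497 to 1.05) and C3 (0.328 to 9.60) met the criterion in neither direction. C4b was 2.16- to 3.26-fold higher at 2, 4, 5 and 6 wk but had 0 UMIs in hematopoietic-like cells at 3 wk, and met it when that library was left out. Its 2 wk ratio, the highest, rests on 2 hematopoietic-like UMIs (interval 0.383 to 12.5). The intervals at 4 and 6 wk began at 1.09 and 1.10, and only that at 5 wk (2.37 to 4.27) lay above 2-fold. In this class the stromal markers Mmp2, Dcn, Lum, Mfap4 and Pdgfra were at 9.43% to 13.5% of their stromal-like level, beside 12.2% for Serping1, 21.8% for C1s1 and 35.9% for C1ra, and the part of carried-over stromal RNA in these values was not tested. Most of those UMIs lay in hematopoietic-like cells that stayed unnamed in the second clustering, since macrophage-like cells had 9 Serping1, 7 C1ra and 3 C1s1 UMIs in all. With a mean of per-cell CPM in place of summed UMIs, the median ratio of C1ra moved from 0.405 to 0.126, that of C1s1 from 0.145 to 0.0922 and that of Serping1 from 0.137 to 0.0499.

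The promoters of C1qb and C1qc are shown because both genes were high in hematopoietic-like cells (at least 646 and 503 CPM) and far lower elsewhere (at most 18.2 and 23.0). Their Pearson r was 0.992 over 46 class-by-library sums on a log2 scale. It is set mainly by this contrast of classes and says little of how the chains vary within a class. The sequences run from 250 bases before to 50 bases after the start (RefSeq, GRCm38.p6) at chr4:136886151-136886450 and chr4:136892865-136893164, both minus strand. By GENCODE, C1qc begins at 136893065, inside its window and upstream of the RefSeq start, so positions in that window depend on the annotation used. Capitals mark GAGGAA or its reverse complement, the core bound by PU.1, a transcription factor of myeloid cells.
C1qb: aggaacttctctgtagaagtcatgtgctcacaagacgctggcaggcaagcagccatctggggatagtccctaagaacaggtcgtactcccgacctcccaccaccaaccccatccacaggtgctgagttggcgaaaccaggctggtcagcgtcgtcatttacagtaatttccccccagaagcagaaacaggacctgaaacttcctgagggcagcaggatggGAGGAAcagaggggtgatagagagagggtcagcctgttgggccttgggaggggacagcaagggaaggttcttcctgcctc
C1qc: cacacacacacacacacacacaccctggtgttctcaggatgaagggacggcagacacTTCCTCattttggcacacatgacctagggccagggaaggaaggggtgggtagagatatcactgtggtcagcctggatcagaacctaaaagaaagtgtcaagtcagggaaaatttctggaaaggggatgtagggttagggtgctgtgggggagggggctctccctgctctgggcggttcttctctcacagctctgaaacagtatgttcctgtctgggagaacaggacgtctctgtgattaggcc
GAGGAA occurs on either strand in 28.3% of all 32851 mouse promoters of that length, so its presence in both is a description only. Neither holds TATAAA (in 13.6% of promoters), CCAAT (37.4%), the interferon-stimulated response core (3.44%), the STAT core TTCNNNGAA (8.30%) or the C/EBP core TTGCNNAA (10.8%). GC content was 56.3% and 53.3%. No promoter of C1qa was available in the table used.

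C1ra and C1s1 encode the proteases C1r and C1s, and the genes lie beside each other on chromosome 6 and run towards each other (C1ra at 124512405-124523443 on the plus strand and C1s1 at 124530345-124542359 on the minus strand). Their close copies C1rb and C1s2 had 83 and 53 UMIs. How reads that match a gene and its copy were counted was not examined, so the C1ra and C1s1 counts are uncertain to that extent. C1s1 is also overlapped by the antisense gene Gm16567. C1ra was highest in surface epithelial-like cells, at 86.3, 122, 95.8, 122 and 56.9 CPM at 2, 3, 4, 5 and 6 wk. In stromal-like cells it was at 19.6 CPM (18.3 to 20.9), 20.6 (19.04 to 22.3), 30.2 (28.1 to 32.5), 42.7 (40.2 to 45.3) and 36.2 (34.3 to 38.2), and in pericyte-like cells between 30.8 and 57.9. Granulosa-like cells had 4.45 to 7.32 CPM, below every stromal-like library.

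C1s1 was highest in pericyte-like cells, at 178 CPM (156 to 202), 169, 149, 228 and 239.6 (221 to 259) from 2 to 6 wk, and close to it in surface epithelial-like cells, at 165, 164, 141, 159 and 146. The ranges of these 2 classes overlapped, and neither overlapped the stromal-like range. Stromal-like cells had 19.7 CPM (18.4 to 21.0) at 2 wk, 31.1 at 3 wk, 44.9 at 4 wk, 72.6 (69.3 to 75.9) at 5 wk and 69.5 (66.8 to 72.1) at 6 wk, so that C1s1 was lowest in the 2 wk library and highest at 5 and 6 wk. Over 46 class-by-library sums, the gene whose log2 level was most like that of C1ra was C1s1 (Pearson r = 0.924, the highest of 13419 genes), and the same held for C1s1 with C1ra. The points share libraries and cell classes, so the r is a description.

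The promoters of this pair are shown because the levels of the genes were most like each other, at chr6:124512371-124512670 (plus strand) and chr6:124542272-124542571 (minus strand, the first of 2 RefSeq entries). Capitals mark TTCNNNGAA, TTGCNNAA or GAGGAA on either strand.
C1ra: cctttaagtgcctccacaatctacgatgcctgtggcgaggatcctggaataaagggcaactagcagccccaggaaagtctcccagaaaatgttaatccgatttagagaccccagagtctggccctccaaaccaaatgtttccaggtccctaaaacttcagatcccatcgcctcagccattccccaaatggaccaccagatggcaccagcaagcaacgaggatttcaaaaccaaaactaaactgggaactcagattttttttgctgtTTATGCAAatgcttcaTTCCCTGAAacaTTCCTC
C1s1: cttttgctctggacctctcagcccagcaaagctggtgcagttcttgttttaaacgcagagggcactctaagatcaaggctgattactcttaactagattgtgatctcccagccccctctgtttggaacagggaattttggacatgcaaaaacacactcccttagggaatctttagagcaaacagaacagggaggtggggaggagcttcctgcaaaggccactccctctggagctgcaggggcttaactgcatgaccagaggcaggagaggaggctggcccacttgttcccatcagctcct
The C1ra window holds a match to each of these 3 cores, all downstream of the RefSeq start, and the C1s1 window holds none of the 6 motifs searched. The GENCODE start of C1ra given above, 124512405, lies near the upstream end of its window. Most of that window is thus inside the gene by GENCODE, and the motif positions depend on the annotation used. No motif was shared by the pair, which says only that these letters are not in the C1s1 window.

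C2 encodes the protease subunit of the classical C3-cleaving enzyme and lies at 34862604-34898265 on the minus strand of chromosome 17, near C4b at 34728380-34743882. Its 3′ end lies within the predicted gene Gm20547 (34856412-34882042, same strand), which had 0 UMIs. How reads that lie in both genes were counted was not examined, so the C2 counts are uncertain to that extent. The close relative of C2, Cfb, had 29 UMIs, and whether its reads were affected in the same way was not examined. C2 was highest in surface epithelial-like cells in every library, at 151 CPM (131 to 173) at 2 wk, 176 at 3 wk, 279 (227 to 339.7) at 4 wk, 234 at 5 wk and 148 (117 to 184) at 6 wk. The highest level in another class was 51.7, in theca-like cells at 5 wk. Surface epithelial-like cells held 9.71% of C2 UMIs with 0.58% of all UMIs. Smooth muscle-like cells had 18.6 to 31.9 CPM, stromal-like cells 12.2 to 20.6 and granulosa-like cells 1.78 to 2.95. Theca-like cells had 23.8 CPM (16.0 to 34.2), 16.0 (10.96 to 22.6), 48.4 (40.01 to 58.1), 51.7 (47.6 to 56.1) and 15.1 (9.09 to 23.6) from 2 to 6 wk, high at 4 and 5 wk and low in the others.

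C4b encodes complement C4, which supplies the other subunit of that enzyme, and its near-identical copy C4a is not in the gene table, so the C4b counts are uncertain to that extent. Its level was low in most classes. Rete ovarii-like cells had 24.95 CPM (15.2 to 38.5) at 2 wk in 53 cells and 55.1 (31.5 to 89.4) at 3 wk in 31 cells. Surface epithelial-like cells had 3.69, 86.5, 16.9, 17.8 and 0 CPM from 2 to 6 wk, and 3 counts in place of the 0 at 6 wk would be 5.69 CPM. Stromal-like cells had 0.975 CPM (0.711 to 1.31), 2.36, 4.98, 13.1 (11.7 to 14.6) and 4.81 (4.14 to 5.56). Macrophage-like cells had 0 (0 to 83.6), 0 (0 to 35.9), 29.8 (9.66 to 69.5), 83.3 (60.01 to 113) and 27.9 (13.4 to 51.2), from 5, 14, 24, 46 and 37 cells. The counts of 0 at 2 and 3 wk thus do not show a lower level than at 4 or 6 wk.

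C3, the component that all routes cleave, lies at 57203970-57228136 on the minus strand of chromosome 17. Its UMIs came mainly from 3 small groups of cells. A stromal-like group named for Pi16, a marker of adventitial fibroblasts, held 47.1% of them with 1.25% of all UMIs, surface epithelial-like cells held 31.0% with 0.58% and rete ovarii-like cells 11.6% with 0.19%. In surface epithelial-like cells C3 was at 375 CPM (343 to 409) at 2 wk, 1691 (1555 to 1836) at 3 wk, 877 (782 to 979.6) at 4 wk, 514 (467 to 565) at 5 wk and 55.0 (36.8 to 78.9) at 6 wk, from 109, 48, 49, 51 and 65 cells. In Pi16-type cells it was at 25.2 CPM (19.6 to 31.9), 278 (253 to 306), 434 (397 to 474), 974 (925 to 1025) and 801 (717 to 893), from 232, 228, 134, 128 and 39 cells. The level was thus highest at 3 wk in the epithelial class and at 5 wk in the Pi16 type as a whole. Within each cluster of the Pi16 type, given below, it was highest at 6 wk.

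The promoter of C3 is shown because C3 was among the members that differed between 6 and 2 wk in stromal-like cells, at chr17:57228087-57228386 (minus strand), with TATAAA and the C/EBP core TTGCNNAA in capitals.
C3: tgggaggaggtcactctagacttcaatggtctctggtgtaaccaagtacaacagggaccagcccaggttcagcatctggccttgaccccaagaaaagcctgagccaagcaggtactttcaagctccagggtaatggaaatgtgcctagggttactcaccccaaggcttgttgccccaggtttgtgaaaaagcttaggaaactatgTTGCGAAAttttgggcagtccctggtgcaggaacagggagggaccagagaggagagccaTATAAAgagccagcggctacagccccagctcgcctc
The TATAAA match here lies just downstream of the RefSeq start. Of the 5 promoters read, only that of C3 held TATAAA. Promoters of C2, C4b and Serping1 were not available in the table used.

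Serping1, the gene for C1 inhibitor, lies at 84765387-84775444 on the minus strand of chromosome 2. Of its UMIs, 68.1% came from stromal-like cells, which had 27.9% of all UMIs. Surface epithelial-like cells had 409, 928, 657, 499.6 and 368 CPM from 2 to 6 wk, pericyte-like cells 282 to 470.5 and stromal-like cells 232 (228 to 237), 205 (200.2 to 211), 308 (301 to 315), 288 (282 to 295) and 261 (256 to 266). The Pi16 type stood above all these with 1057, 1087, 1535, 1464 and 1451 CPM. Theca-like cells had 27.9, 24.5, 71.4, 15.6 and 26.2 CPM, below every stromal-like library. Granulosa-like cells had 3.86, 4.13, 4.66, 3.59 and 5.39 CPM, which was 1.75% of the stromal-like level, beside 1.10% to 3.84% for the stromal markers Mmp2, Dcn, Lum, Mfap4 and Pdgfra. By the same measure C1ra was at 22.4%, C1s1 at 14.9%, C2 at 13.7%, C4b at 4.79% (3.67 to 6.17) and C3 at 1.22%. These shares are of sums over all libraries and hide a spread between them. By library, C4b was at 0.0223 to 0.206 and C3 at 0.00263 to 0.131 of the stromal-like level. The part of carried-over RNA in these values was not tested.

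In theca-like against stromal-like cells, none of the 7 members with enough UMIs was at least 2-fold higher in every library (2.96% of 14539 genes were) and Serping1 alone was at least 2-fold lower (5.39% were, and 8.34% were either), by 4.31- to 18.5-fold. The stromal-like side includes a cluster of 2562 cells, led by Hhip and Mest, that had the theca list as its best-scoring list, so the comparison is not one of all theca cells. The median ratios were 0.503 for C1ra, 0.499 for C1s1, 1.31 for C2 and 0.819 for C4b, and none of them met the criterion in every library. C3 had 2 UMIs in all theca-like cells, both at 5 wk. At 3, 4 and 6 wk, with the limit of 3 counts in place of 0, it was at most 0.0976, 0.0559 and 0.235 of the stromal-like level, whereas the 2 wk count could not show a difference, so that C3 met the criterion when that library was left out. With the steroidogenic theca group of the second clustering in place of this class, the median ratio of Serping1 moved from 0.119 to 0.264 and C3 was also at least 2-fold lower.

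Within the stromal-like class, 3 of the 6 members with enough UMIs, C1s1, C4b and C3, were at least 2-fold higher at 6 wk than at 2 wk, and none was lower. Of all 13229 genes, 10.6% met that criterion, 4.23% being higher and 6.36% lower, and the median log2 ratio was 1.35 over the members and -0.01 over all genes. The ratios were 3.53 (3.27 to 3.81) for C1s1, 4.94 (3.55 to 6.998) for C4b and 5.57 (4.39 to 7.15) for C3. C1ra was 1.85-fold (1.70 to 2.01), Serping1 1.12-fold (1.09 to 1.16, but 0.993-fold when the libraries were merged without integration) and C2 0.751-fold (0.674 to 0.837) its 2 wk level. Between 4 and 2 wk, within the same software version, the ratios were 2.28 for C1s1, 5.11 for C4b, 12.3 for C3, 1.54 for C1ra, 1.33 for Serping1 and 1.07 for C2, and 4.09% of all genes were at least 2-fold higher. Between 6 and 5 wk they were 0.957 for C1s1 (0.902 to 1.02), 0.848 for C1ra, 0.368 for C4b and 0.165 for C3.

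The Pi16-type cells, in which C3 and C4b were concentrated, numbered 232 at 2 wk and 39 at 6 wk, beside 3427 and 3045 stromal-like cells. Without them the stromal-like ratios of 6 to 2 wk were 4.38 for C1s1, 5.82 for C4b, 4.59 for C3, 2.25 for C1ra, 1.38 for Serping1 and 0.731 for C2, so that C1ra also met the criterion. When the libraries were merged without integration, the ratios of C3 and C4b were 2.29 and 2.06. Pi16-type cells were also fewer at 6 wk than at 5 wk. Within them the ratios of 6 to 5 wk were 0.823 for C3 and 0.785 for C4b, nearer 1 than in the whole class. Of the 3 groups of the second clustering with such a C3 ratio, 2 were at or below 0.5, the lowest at 0.289. The part of the mix of cells in the class-wide ratios was not tested.

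The second clustering divided the mesenchymal cells (theca-like, stromal-like and smooth muscle-like) into 11 groups named from marker genes. In each of the 11 groups the interval of the C1s1 ratio of 6 to 2 wk lay above 1, with ratios between 1.97 and 7.56. The same held in all 11 between 4 and 2 wk (1.58 to 3.90), whereas between 6 and 5 wk the interval lay above 1 in 4 groups and below 1 in 1. The largest ratios were in the Dpt type, where C1s1 was at 9.11, 17.6, 35.5, 51.0 and 68.9 CPM from 2 to 6 wk, and in the Hoxd9 type, where it was at 17.98, 35.5, 52.5, 118 and 128. For C1ra the interval of 6 to 2 wk lay above 1 in 8 of 11 groups (ratios 1.26 to 4.11). Serping1 was above 1 in 7 and below in 1 (0.602 to 1.65), and C2 was above 1 in 2 and below in 5 (0.386 to 2.98). Outside these groups, C1s1 was 1.35-fold (1.16 to 1.57) in pericyte-like cells and 0.883-fold (0.672 to 1.15) in surface epithelial-like cells, intervals that do not overlap the 3.27 to 3.81 of stromal-like cells.

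**Figure D3:**
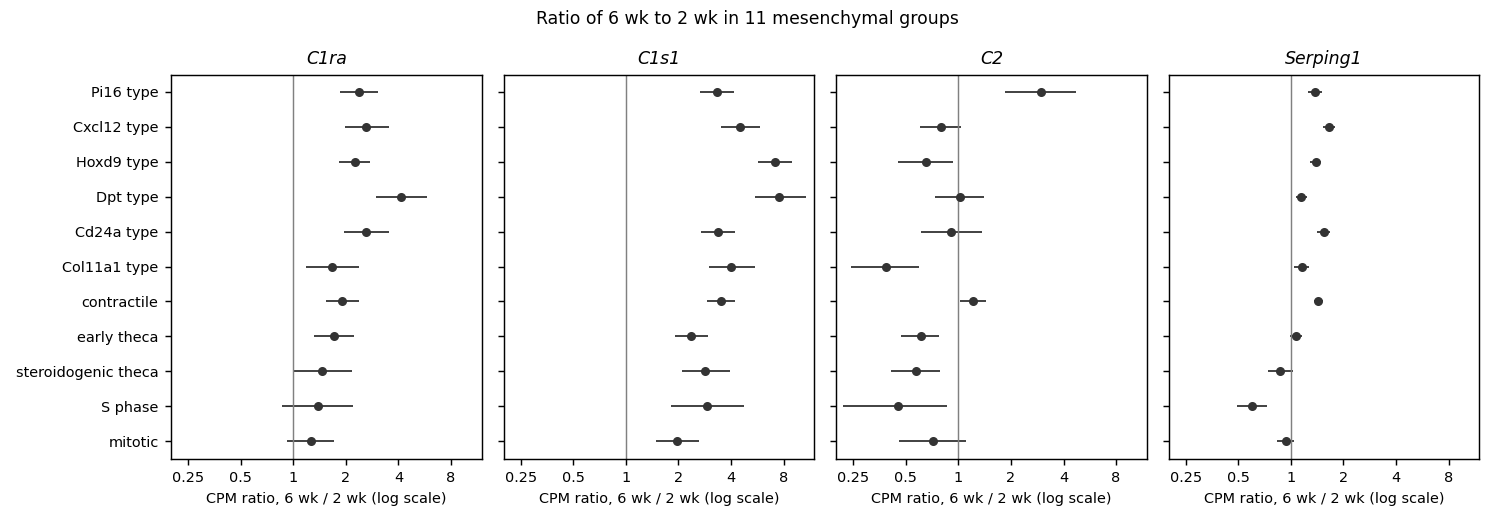
Ratio of the 6 wk to the 2 wk level (log axis) of C1ra, C1s1, C2 and Serping1 in 11 mesenchymal groups, with exact 95% intervals. All 11 C1s1 intervals lie above 1 (ratios 1.97 to 7.56), whereas C2 has 5 intervals below 1 and 2 above.

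By the median over libraries, the Pi16 type had the highest level of the 11 groups for each of the 6 members outside C1q. C4b in these cells was at 6.21 CPM (3.62 to 9.94) at 2 wk, 24.7 at 3 wk, 47.6 at 4 wk, 131 (113 to 150.2) at 5 wk and 103 (73.9 to 139) at 6 wk, and C1s1 at 89.5, 141, 152, 368 and 298. The ratios of 6 to 2 wk were 31.8 (24.5 to 41.8) for C3, 16.5 (9.21 to 31.0) for C4b, 3.33 (2.66 to 4.16) for C1s1, 2.98 (1.86 to 4.69) for C2, 2.39 (1.84 to 3.07) for C1ra and 1.37 (1.25 to 1.4996) for Serping1. The type had 2 clusters. In that led by Dlk1 and Cilp, C3 was at 4.08, 34.7, 83.0, 228 and 429 CPM from 2 to 6 wk, and in the other, with C3 and Igfbp3 among its leading genes, at 49.7, 478, 818, 1282 and 1383. Both clusters had their lowest C3 at 2 wk and their highest at 6 wk, and the 6 wk values rest on 25 and 14 cells. C4b was next in the Cxcl12 type, at 1.30, 2.45, 9.79, 20.6 and 13.8 CPM.

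**Figure D4:**
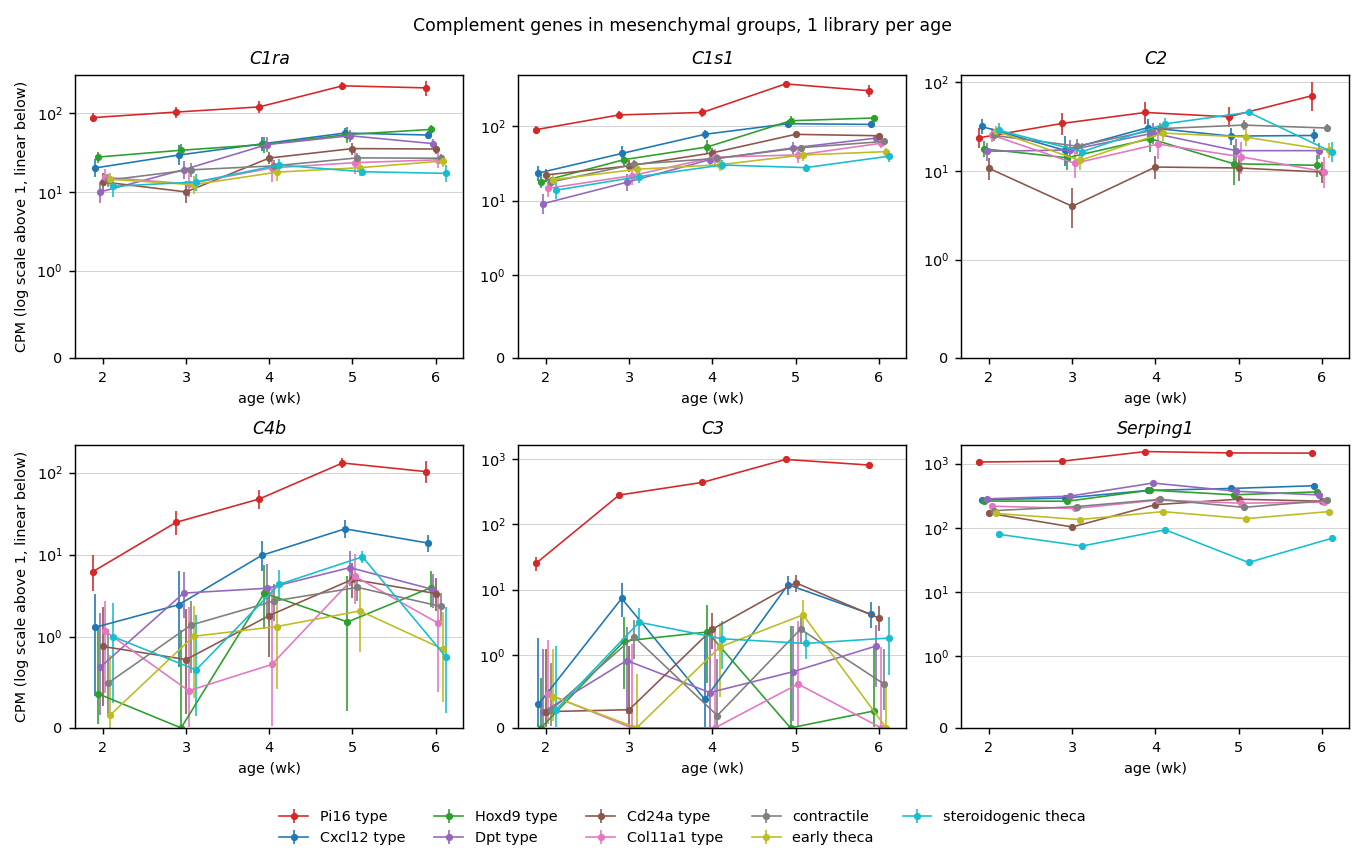
Level of 6 complement genes (CPM, symmetric log axis) against age (wk) in 9 mesenchymal groups, with 1 library per age and exact 95% Poisson intervals. The Pi16 type is the highest line for C3 (25.2 CPM at 2 wk and 974 at 5 wk), C4b (6.21 and 131) and Serping1 (1057 and 1464).

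In the steroidogenic theca group C2 was at 28.8 CPM (23.8 to 34.6), 16.5 (13.1 to 20.6), 34.2 (29.3 to 39.6), 46.1 (42.7 to 49.7) and 16.4 (12.6 to 21.0) from 2 to 6 wk, and the ratio of 6 to 5 wk was 0.356 (0.271 to 0.462). In the same group Serping1 was at 79.2, 52.2, 93.2, 28.9 and 68.8 CPM, lowest at 5 wk where C2 was highest. The cells of this group were unevenly spread over its 3 clusters, the one led by Cyp11a1 having 475 of the 641 cells at 5 wk and 41 of 190 at 6 wk. Within that cluster C2 was at 25.1, 17.8, 53.0, 53.5 and 16.6 CPM and Serping1 at 29.8, 28.0, 78.2, 17.3 and 24.9. Another cluster of the group, with 304 cells, was led by the granulosa gene Amh, and 49.7% of its cells were called doublets.

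Granulosa-like cells were divided into groups named for primary, secondary and antral follicles, S phase, mitosis and remodeling. The last takes its name from clusters that, by indications given in the study, derive from partly regressing follicles. It was named here from markers such as Lox, Mmp11 and Pamr1. The study also reports Mmp11, Ghr and Cald1, all on that marker list, as higher in antral granulosa cells of later follicles than of the earliest ones. The name therefore does not settle the origin of these cells. They were rare before 4 wk (93 and 132 cells at 2 and 3 wk against 1328, 760 and 804). Of the 4 members with enough UMIs, C1s1 was at least 2-fold higher in remodeling than in antral granulosa cells in each of the 4, 5 and 6 wk libraries (3.87% of 12914 genes were), and none was lower (1.73% were, and 5.61% were either). Remodeling cells had 17.9 CPM (15.8 to 20.1), 26.1 (23.2 to 29.2) and 24.6 (21.9 to 27.5) at 4, 5 and 6 wk against 2.12 (1.49 to 2.92), 2.86 (1.92 to 4.11) and 2.22 (1.61 to 2.98) in antral cells. The ratios were 8.43 (5.97 to 12.2), 9.11 (6.21 to 13.8) and 11.1 (8.06 to 15.6). Primary granulosa cells lay between, at 11.6, 16.2 and 11.3 CPM.

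Summed over all libraries, the C1s1 level of remodeling cells was 48.9% (45.6 to 52.4) of that of stromal-like cells. The 5 stromal markers were at 0.363% to 8.54% by the same measure, Mmp2 being the highest. These sums mix ages unequally, since remodeling cells were rare before 4 wk, when stromal-like C1s1 was lowest. At 4, 5 and 6 wk remodeling cells had 17.9, 26.1 and 24.6 CPM beside 44.9, 72.6 and 69.5 in stromal-like cells. The share within each of these libraries was thus below 48.9%. The part of carried-over stromal RNA in these values was not tested. C1ra was 1.55- to 2.63-fold, Serping1 1.69- to 2.84-fold and C2 0.531- to 0.899-fold their antral levels, and did not meet the criterion. With the 2 antral clusters that were named only by their likeness to a published profile left out, the median C1s1 ratio was 24.2 and C1ra also met it, with a median of 2.46. With libraries merged without integration, Serping1 met it too. Remodeling cells had 3 clusters, and C1s1 was highest in that led by Pamr1 and Angpt2, at 31.7, 50.5 and 50.01 CPM at 4, 5 and 6 wk, or 14.97, 17.6 and 22.6 times the antral level. The cluster led by Lox and Ghr had 16.3, 28.8 and 29.5 CPM, and that led by S100a6 and Kcnk3 had 16.1, 15.5 and 12.3.

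**Figure D5:**
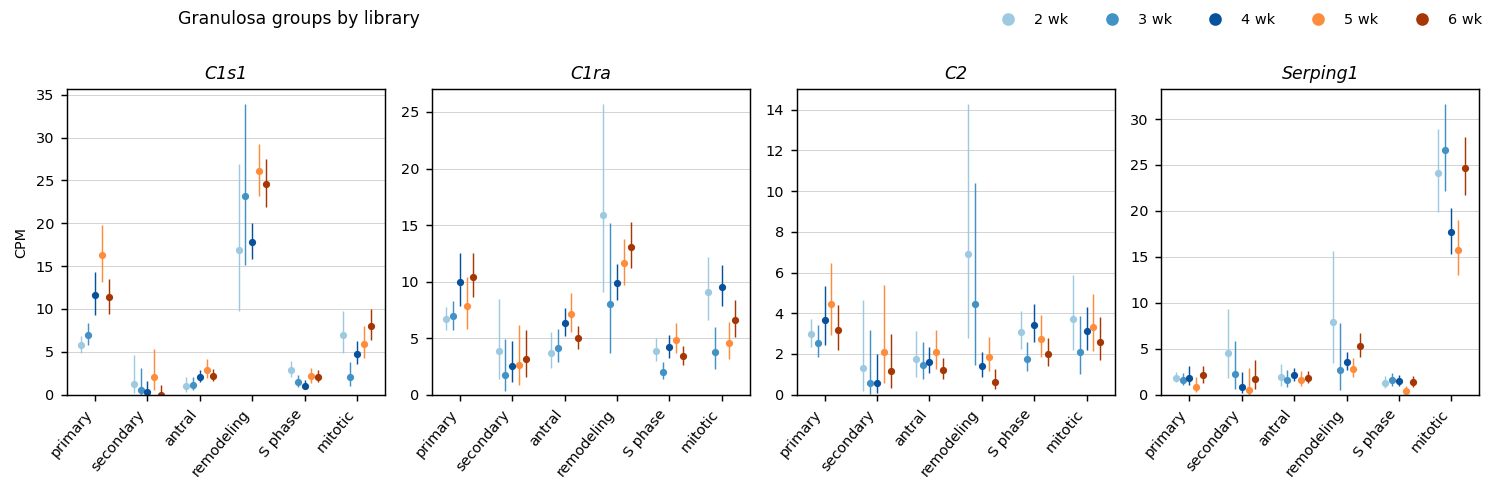
Level of C1s1, C1ra, C2 and Serping1 (CPM, linear axis) in 6 groups of granulosa-like cells, with 1 point per library coloured by age and exact 95% Poisson intervals. Sums of under 20 cells are left out. C1s1 in remodeling cells is at 17.9 to 26.1 CPM at 4, 5 and 6 wk and in antral cells at 2.12 to 2.86, and Serping1 stands out in the mitotic group at 15.8 to 26.6 CPM.

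In the whole granulosa-like class, none of the 4 members with enough UMIs differed by 2-fold between 6 and 2 wk (13.7% of 13809 genes did, 6.64% being higher and 7.01% lower). The ratios were 1.16 (1.01 to 1.34) for C1ra, 1.70 (1.46 to 1.97) for C1s1, 0.603 (0.476 to 0.764) for C2 and 1.39 (1.18 to 1.66) for Serping1. In primary granulosa cells C1s1 was at 5.80, 7.01, 11.6, 16.2 and 11.3 CPM from 2 to 6 wk, a ratio of 6 to 2 wk of 1.96 (1.53 to 2.49), and in remodeling cells that ratio was 1.46 (0.897 to 2.54). Of the 1323 Serping1 UMIs of granulosa-like cells, 768 came from 1 cluster of 422 cells, grouped as mitotic but led by the collagen genes Col1a2 and Col1a1, of which 44.8% were called doublets. Serping1 was there at 44.2 to 83.4 CPM over the libraries.

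Of 45 other complement genes in the table, 24 had enough UMIs in the comparison of stromal-like with granulosa-like cells, and 6 (among them Colec11, Cd55, Vtn, Hc and C7) were at least 2-fold higher and 3 (Clu, Susd4 and Masp1) lower in every library, beside 10.9% and 8.28% of all genes tested. Cd55, a membrane regulator that dissociates the C3-cleaving enzyme, was 4.28- to 19.1-fold higher in stromal-like cells. Clu, the gene for the terminal-pathway inhibitor clusterin, was at 0.104 to 0.204 and Masp1, a protease of the lectin pathway, at 0.0534 to 0.237 of the granulosa-like level. In remodeling against antral cells, 2 of 14 were higher, among them Cd55 by 3.77- to 7.56-fold, and 0 were lower, beside 3.87% and 1.73% of all genes.

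In hematopoietic-like against stromal-like cells, 6 of 27 were higher, namely Cfp, the gene for properdin, the anaphylatoxin receptors C3ar1 and C5ar1 and the integrin chains of complement receptors Itgam, Itgax and Itgb2, and 3 (among them Cd59a and Csmd1) were lower, beside 8.38% and 4.96% of all genes. The receptors thus stood in the class that held C1q, with C3ar1 at 209 and C5ar1 at 145 CPM over all libraries. In theca-like against stromal-like cells, 2 of 20 were higher (Clu by 6.63- to 16.0-fold, and Cd59a) and 4 lower (among them Colec11, Colec12 and Csmd1), beside 2.96% and 5.39% of all genes. From 2 to 6 wk in stromal-like cells, 5 of 18 were at least 2-fold higher, among them the lectin Colec11 (4.45-fold), C5 (Hc, 3.29-fold) and vitronectin (Vtn, 20.1-fold), and C7 (0.167-fold) and Susd4 (0.291-fold) were lower, beside 4.23% and 6.36% of all genes. In granulosa-like cells 4 of 16 were higher, among them Cd55 (2.66-fold), Masp1 (2.56-fold) and Masp2 (2.43-fold), and Colec12 and Susd4 were lower (0.342- and 0.341-fold), beside 6.64% and 7.01% of all genes. The make-up of this class differed between the ages. A cluster with Masp1 among its leading genes had 148 cells at 2 wk and 633 at 6 wk, and one with Susd4 had 579 and 277. Ratios within granulosa groups are not given for these genes, and the part of the mix of cells was not tested.

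Across the 46 class-by-library sums, the genes with log2 levels most like those of the other members were named by the same rule. For C1qa these were Ms4a7 (r = 0.997), C1qb (0.996) and Fcrls (0.994), and C1qb and C1qc had C1qa and Ms4a7 among their nearest 3. C1ra and C1s1 shared Mgat3 as their next gene (0.884 and 0.875). C2 was nearest to Nkain4 (0.861), C3 to Tmem108 (0.833) and the epithelial gene Epcam (0.833), C4b to Man2a2 (0.769) and Serping1 to Lgals1 (0.899). Outside the C1q chains and the pair of C1ra and C1s1, the r between members were at most 0.744 (C1s1 with Serping1). They were 0.522 for C2 with C4b, 0.346 for C1s1 with C3 and -0.192 for C1qa with C1ra.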

How the data were processed

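Single-cell RNA sequencing was measured in 5 mouse ovary libraries, 1 each at 2, 3, 4, 5 and 6 wk. The deposited values are raw UMI counts per gene and cell, made by the authors with Cell Ranger on mm10 and filtered to cells. The submitters' notes name Cell Ranger 3.1.0 and Seurat 4.1.0, whereas the matrix headers name Cell Ranger 3.1.0 and 6.0.1. The levels given here as CPM were computed from these counts.

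All 48163 cells were kept. Doublets were called per library with Scrublet (scanpy 1.11.5) and kept, except in an alternative (162 to 555 cells per library). Libraries were integrated in Seurat 5.3.0 (R 4.3.3) over 2000 variable genes, without 19 complement genes, and clustered on 30 principal components at resolution 1. A name required at least 3 detected markers, but not every unnamed cluster lacked them. In the first clustering, clusters of 2741, 1675, 1535 and 425 cells had 4 or 5 detected markers and stayed unnamed for low UMIs. Another of 1160 cells had 5 and stayed unnamed because 61.9% of its cells were called doublets, the limit being 50%. Only the unnamed cluster of 477 cells had too few markers. A second clustering was run within the hematopoietic-like, granulosa-like and mesenchymal cells, the last joining theca-like, stromal-like and smooth muscle-like cells. Names given in that step further required the z scores of the markers to average 1 or more. The antral clusters 2 and 11 and the secondary cluster 13 of granulosa cells fell short of this. They were named only by likeness to a published profile (correlation of at least 0.7). The members, lists and markers were chosen with earlier results of these data known.

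With 1 library per age no test was run. A gene was counted as different where its CPM ratio was at least 2-fold in every library used, with 50 UMIs or more in the 2 groups together, and a count of 0 was replaced by 3 counts. The procedure was tested on simulated data. Values of 1 gene of the pathway list are not reported here. All members were named, together with up to 8 other pathway genes per comparison by summed UMIs and, added after their values were seen, the ninth where there were 9, and the 3 genes nearest to each member by Pearson correlation of log2(CPM + 1) among genes with at least 500 UMIs. Promoters and motifs came from RefSeq (GRCm38.p6), which matched 5 of the 9 members, and gene positions from GENCODE on GRCm38. Depth was 93438618 to 144609431 UMIs per library, and intervals cover counting error only.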

Additional observations from a re-analysis of the deposited data

Results flagged for a closer look

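C3 differed in direction between classes from 2 to 6 wk. It was 5.57-fold its 2 wk level at 6 wk in stromal-like cells and 0.147-fold in surface epithelial-like cells, and with 1 library per age this difference was not tested. These 2 ages also differ in Cell Ranger version. Between ages of the same version, C3 went the same way in both classes. From 2 to 4 wk it rose 12.3-fold in stromal-like and 2.34-fold in surface epithelial-like cells. From 5 to 6 wk it fell from 61.6 to 10.1 CPM and from 514 to 55.0 CPM. The cells of unnamed clusters, which enter no comparison, had UMIs of all 9 members above the limit that a count of 0 allows. Their levels over the 5 libraries were 5.31 CPM for C1qa, 3.99 for C1qb, 2.62 for C1qc, 13.1 for C1ra, 24.3 for C1s1, 8.08 for C2, 1.40 for C4b, 2.15 for C3 and 82.7 for Serping1. Of the 460 C1q UMIs in these cells, 383 came from the 6 wk library, and 16 of the 8013 cells had UMIs of all 3 chains.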

How the results depend on the processing

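No paired analysis between ages was possible because each age has 1 library and the samples share no replicate pairs. The comparisons between classes were made within each library. No count and no ratio that met the 2-fold criterion reversed under any alternative, while the stromal-like ratio of Serping1 from 2 to 6 wk, 1.12, was 0.993 when libraries were merged without integration. Of the counts of members recomputed, 74 stayed within 1.5 times the main count and 6 did not. These were remodeling against antral granulosa cells (main count 1), which gave 2 when libraries were merged without integration, 3 at 1.5-fold and 2 without the antral clusters named by profile, theca-like against stromal-like cells (main count 1), which gave 1 to 2 when each library was left out in turn and 2 with the steroidogenic theca group, and 6 against 2 wk in granulosa-like cells (main count 0), which gave 2 at 1.5-fold. The last 2 kinds of regrouping (antral clusters, theca group) and the stromal-like class without Pi16-type cells were chosen after seeing the data. The share of all genes that met each alternative is not given here. The counts under the alternatives are thus not set against a background. Of the recomputed ratios of single members, 225 moved by less than the spread between libraries or the counting interval and 25 by more. Merging without integration gave the lowest age ratios of C4b (2.06) and C3 (2.29) in stromal-like cells, and a mean of per-cell CPM gave the highest for C4b (8.08). The cause was not tested. Depth limits C4b, C3 and C1q outside their main classes, where sums held few UMIs.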

Other observations

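A small mesenchymal cluster led by the interferon-induced genes Ifit3, Ifit1 and Rsad2 (105 cells) had Serping1 at 604, 614 and 482 CPM at 4, 5 and 6 wk, in 13, 18 and 73 cells, beside 308, 288 and 261 in all stromal-like cells. It was counted within the Cxcl12 type and had no cell at 2 wk and 1 at 3 wk. That type as a whole had Serping1 at 273 to 451 CPM over the libraries. The Dpt type reached 497 CPM, and the Pi16 type stood higher at 1057 to 1535. Neutrophil-like cells, which had no C1q UMI, had 28 C3 UMIs in 31 cells, with 308, 123, 143, 162 and 337 CPM from 2 to 6 wk in 3 to 13 cells per library.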
